A study of Mus musculus with 6 samples.

Results

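CHG exon regions outside CpG islands are stretches of mouse exon in which cytosines of the CHG context, where H is any base but G, were listed by the authors as differently methylated between 2 groups of embryos. A region was taken when its annotation entries included an exon or a 5' UTR and no 3' UTR, CpG island or island shore. Its listed chromosome name also had to be other than X and Y. This gave 419 of 1884 listed CHG regions (22.2%), out of 9707 listed regions in all cytosine contexts. All 419 carried an exon entry. The methylome was read by whole-genome bisulfite sequencing of 6 single embryos at embryonic day 4.5, the late blastocyst. As fertilised eggs of C57BL/6 background they had been microinjected with small RNAs from sperm at 2 ng/µl, and they were collected about 108 h later. The depressed group holds 3 embryos (replicates 1, 3 and 4) given sperm RNA of stress-induced depressed mice, and the normal group holds 3 embryos (replicates 1, 2 and 4) given sperm RNA of normal mice. All 6 embryos were thus injected, and uninjected embryos were not analysed here. The design asks whether embryo methylation differs with the state of the males that gave the RNA.

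The deposited table gives 1 mean level per region and group, which is the authors' value over 3 embryos, and holds no value per embryo and no read depth. No level below therefore has a spread, no difference was tested against the variation between embryos, and intervals are exact binomial 95% intervals over regions that describe the list alone. Regions are not replicates of a condition. Each was listed because its groups differed, so the size of a listed difference is no finding in itself. A lower level in all cells of an embryo and methylation in fewer of its cells cannot be told apart. The table holds no expression values, so the labelled stage was not checked against marker genes.

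Most methylated cytosines of mammals stand before a G, and this CG methylation is copied to the new strand at replication by DNMT1. Methylation of CHG and CHH cytosines is not copied in this way and is laid down by DNMT3A and DNMT3B. It is scarce in most tissues and is best known from neurons, oocytes and pluripotent stem cells. Bisulfite turns unmethylated cytosine into uracil, and a cytosine that escapes conversion is read as methylated.

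The reference sequences at hand are RefSeq promoter windows of GRCm38.p6, the mm10 build of the table, and they cover 250 bases before to 50 bases after each gene start. Of the 419 regions, 5 touched any of 32851 windows. The 3 that shared at least 30 bases with a window are shown, to let the trinucleotides behind a listed region be seen. Capitals mark the bases inside the region and lower case marks the rest of the window. The region in Klc2, a light chain of the kinesin motor, lies whole in the window chr19:5113883-5114182 (plus strand) of the overlapping lncRNA gene LOC115489018. The region in Fyb, an adaptor protein of T cells, shares its first 124 bases by coordinate with the window chr15:6654254-6654553 (minus strand) of the lncRNA gene Gm2245. It also lies over the pseudogene Gm7666. The region in Cttnbp2, a cortactin-binding protein of dendritic spines, shares its last 34 bases by coordinate with the window chr6:18435192-18435491 (plus strand) of the lncRNA gene Gm40356.
Klc2 region: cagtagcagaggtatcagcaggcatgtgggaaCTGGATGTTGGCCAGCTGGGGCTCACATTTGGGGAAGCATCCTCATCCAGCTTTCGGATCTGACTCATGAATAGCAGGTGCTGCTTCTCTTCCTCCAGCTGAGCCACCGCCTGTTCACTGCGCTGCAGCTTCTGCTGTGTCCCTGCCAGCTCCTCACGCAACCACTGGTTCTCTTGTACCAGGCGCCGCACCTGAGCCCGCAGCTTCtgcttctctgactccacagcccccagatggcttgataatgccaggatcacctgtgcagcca
Fyb region: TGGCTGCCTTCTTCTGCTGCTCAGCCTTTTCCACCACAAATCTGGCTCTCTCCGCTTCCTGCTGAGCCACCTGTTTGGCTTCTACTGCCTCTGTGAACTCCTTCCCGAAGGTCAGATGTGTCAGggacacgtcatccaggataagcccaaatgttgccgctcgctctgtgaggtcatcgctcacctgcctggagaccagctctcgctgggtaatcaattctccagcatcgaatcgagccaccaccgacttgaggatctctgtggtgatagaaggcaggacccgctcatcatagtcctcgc
Cttnbp2 region: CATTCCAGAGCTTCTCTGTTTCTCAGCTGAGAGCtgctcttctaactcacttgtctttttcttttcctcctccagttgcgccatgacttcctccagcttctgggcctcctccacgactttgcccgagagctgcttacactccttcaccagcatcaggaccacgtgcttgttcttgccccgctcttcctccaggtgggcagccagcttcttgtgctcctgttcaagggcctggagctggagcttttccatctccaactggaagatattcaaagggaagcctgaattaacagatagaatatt

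In Klc2 the 207 bases at chr19:5113915-5114121 had 0.0426% methylation in depressed and 25.8% in normal embryos. Read on the plus strand, they hold whole trinucleotides CAG 8 times, CTG 13 times, CCG 3 times and CGG 1 time, beside 7 CG dinucleotides, with a GC content of 59.4%. A CAG on 1 strand reads CTG on the other, and both hold a CHG cytosine. The 2 strands together hold 47 CHG cytosines (25 on plus, 22 on minus), while the table counts 22 cytosines in the region. Per 100 bp that is 22.7 CHG cytosines, against a median of 12.7 (quartiles 10 and 15.3) over all windows, 99.99% of which hold at least 1. The Fyb part holds 21 CHG cytosines per 100 bp and the Cttnbp2 part holds 26.5. Both regions were lower in the depressed group: 1.01% in depressed and 52.1% in normal embryos in Fyb, and 0.319% in depressed and 24.1% in normal embryos in Cttnbp2. Of 4 listed CHG regions that lie whole in a window, all 4 begin and end on a plus-strand CHG cytosine, so density and the bounds of a region are not independent.

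Levels in the depressed group were lower in 348 of the 419 regions (83.05%, interval 79.1 to 86.5%) and higher in 71 (16.95%, interval 13.5 to 20.9%). For comparison, depressed levels were the lower ones in 91.0% of all listed CHG regions and the higher ones in 8.97%, and the lower ones in 41.2% of all 9707 listed regions. In the lower regions the median level was 0.209% in the depressed group (quartiles 0.0831 and 1.01%, range 0.0239 to 20.2%) and 33.7% in the normal group (quartiles 21.2 and 49.8%, range 3.30 to 93.8%). In the higher regions it was 22.2% in the depressed group (quartiles 15.8 and 28.1%, range 4.63 to 55.7%) and 0.207% in the normal group (quartiles 0.115 and 0.374%, maximum 5.99%). The listed regions were thus near 0 in 1 group and clearly methylated in the other, and few were methylated in both. The depressed level was under 1% in 259 of 348 lower regions and over 5% in 14. The normal level was under 1% in 59 of 71 higher regions and over 5% in 1. High levels were mostly those of the normal group: it exceeded 50% in 86 lower regions (24.7%), and the depressed group exceeded 50% in 2 higher regions (2.82%).

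**Figure D1:**
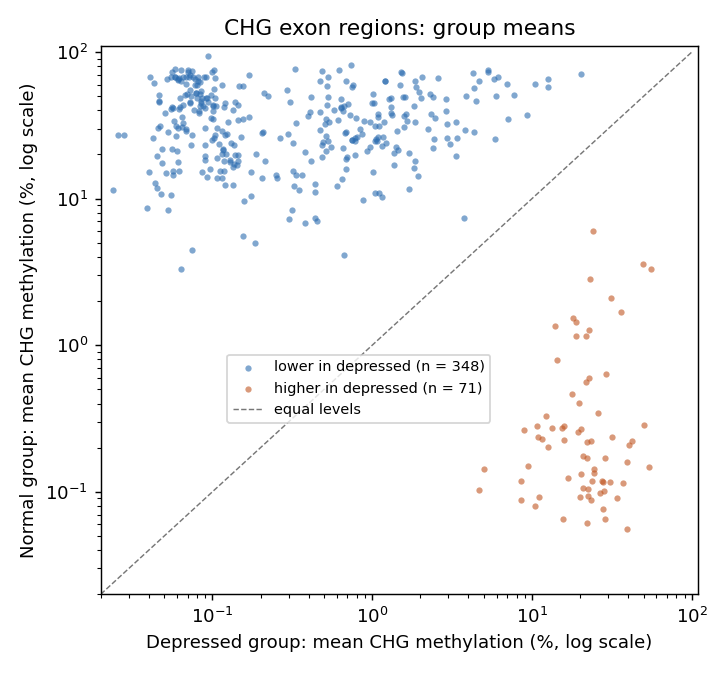
Mean CHG methylation of each of the 419 regions in the depressed group (x axis, %, log scale) and the normal group (y axis, %, log scale), with 1 point per region and a dashed line of equal levels. The 348 lower regions lie at the upper left, most with depressed levels under 1%, and the 71 higher regions lie at the lower right.

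The low levels of the lower regions fell into 2 ranges. Among these regions, the depressed level was under 0.2% in 171, from 0.2 to 0.4% in 25 and at or over 0.4% in 152. The plot of group means shows this as a thinly filled band along the depressed axis. Among the higher regions the normal level was under 0.2% in 34, from 0.2 to 0.4% in 19 and at or over 0.4% in 18, without such a band. Among lower regions, medians of the depressed level were higher where there were more cytosines. Lower regions of 4 to 7 cytosines (n = 106) had medians of 0.103% in depressed and 42.1% in normal embryos. Those of 8 to 12 cytosines (n = 111) had 0.158% in depressed and 33.5% in normal embryos. Those of 13 or more (n = 131) had 0.511% in depressed and 29.5% in normal embryos. Higher regions of 4 to 7, 8 to 12 and 13 or more cytosines had depressed medians of 23.7, 22.3 and 18%, against normal medians of 0.215, 0.173 and 0.218%. The read depth behind these values is unknown, and its part in them was not tested.

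Lower regions had a median length of 120.5 bp (51 to 3729 bp) and a median of 10 cytosines (4 to 66). Higher regions had a median length of 103 bp (52 to 233 bp) and a median of 10 cytosines (5 to 32). Regions over 300 bp numbered 26 among the lower and 0 among the higher, and 4 lower ones passed 1000 bp. An intron entry beside the exon was carried by 35.3% of lower and 35.2% of higher regions, and a promoter entry by 16.4% of lower and 15.5% of higher regions. A 5' UTR entry stood in 27 lower and 2 higher regions. Lower regions outnumbered higher ones on 19 of 19 numbered autosomes, with 5 to 29 lower and 0 to 10 higher per chromosome. Of the remaining 2 regions, both lower, 1 lay on the mitochondrial genome in mt-Co1, a subunit of cytochrome oxidase, with 0.668% in depressed and 4.11% in normal embryos. The other lay on a scaffold listed by its own name, GL456233.1, under Spry3, a Sprouty inhibitor of growth factor signalling. That region had 1.275% in depressed and 47.8% in normal embryos. The rule went by listed name, so a scaffold of chromosome X or Y would not have been left out.

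The lower regions with the largest region statistic (the authors' score) included several in genes of the neuronal cytoskeleton and of glutamate receptors. Map1a, which encodes a microtubule-associated protein of neurons, held 66 cytosines over chr2:121300182-121302510, with 0.468% in depressed and 38.9% in normal embryos. Enc1, an actin-binding kelch protein of the nervous system, had 0.739% in depressed and 82.0% in normal embryos at chr13:97246293-97246651. A neighbouring Enc1 region at chr13:97245168-97245553 had 2.94% in depressed and 26.0% in normal embryos. Map2, the microtubule-associated protein of dendrites, had 2.02% in depressed and 48.4% in normal embryos.

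Receptor genes were in the same group. Gria2, a subunit of the AMPA glutamate receptor, had 0.330% in depressed and 77.1% in normal embryos over a region with promoter and 5' UTR entries (chr3:80802479-80802668). Grm3, a metabotropic glutamate receptor, had 1.64% in depressed and 37.9% in normal embryos. A second Grm3 region, with a smaller statistic, had 0.170% in depressed and 70.05% in normal embryos. Rtn4rl2, a relative of the Nogo receptor, had 1.53% in depressed and 72.0% in normal embryos. The other genes of the group have wider roles. Tcf20, a transcriptional coregulator, had 0.332% in depressed and 33.0% in normal embryos. Tob1, an inhibitor of proliferation, had 0.616% in depressed and 74.96% in normal embryos. Fcgbp, a protein of intestinal mucus, had 0.0656% in depressed and 32.9% in normal embryos, and its region also overlaps the pseudogene Gm21925. Leaving out the second Grm3 region, these 10 regions lie in 9 genes. Of the 10, 9 overlap a listed CHH region, Tob1 being the exception, beside 49.1% of all lower regions. Among lower regions with a statistic of at least 57.37, the median of CHG regions, that share was 63.8%. The predicted pseudogene Gm10073, named outside the rule for named genes, had a larger statistic than any of them, with 4.68% in depressed and 63.4% in normal embryos over 58 cytosines.

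**Figure D2:**
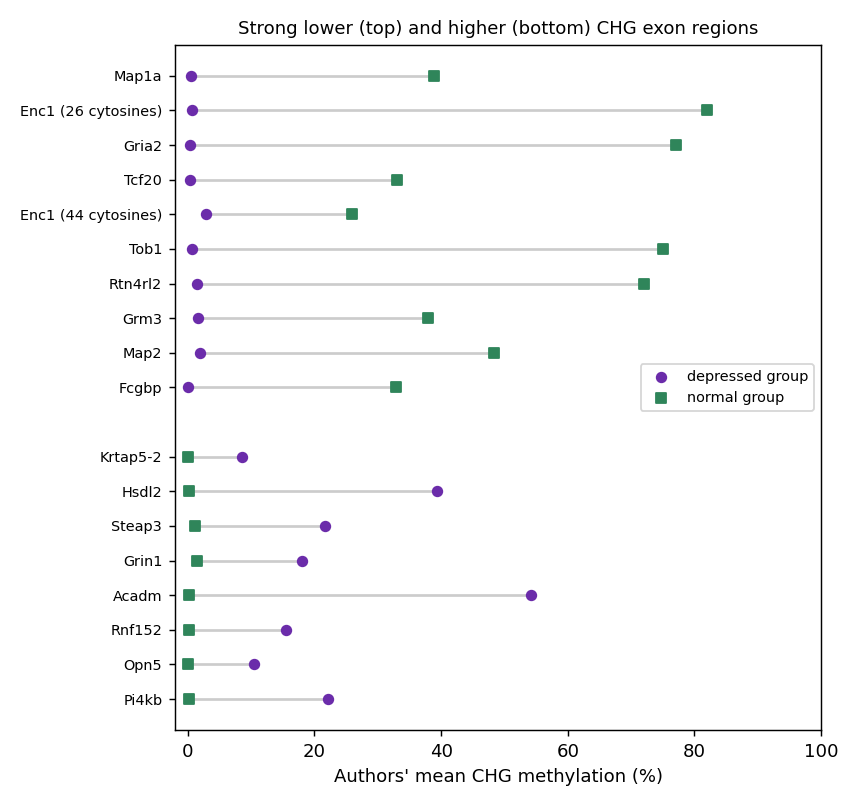
Authors' mean CHG methylation (%, x axis) in the depressed group (circles) and the normal group (squares) for 10 lower and 8 higher regions with large statistics, 1 row per region labelled by gene. The depressed circles of the lower regions lie between 0.0656 and 2.94%, and those of the higher regions between 8.515 and 54.2%.

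Among lower regions with a 5' UTR entry, that of Gm10073 had the largest statistic. Without predicted names Gria2 came first, followed by Gpat4, an enzyme of glycerolipid synthesis (0.506% in depressed, 32.3% in normal embryos). Krt8, a keratin of the trophectoderm, had 1.15% in depressed and 10.3% in normal embryos. Hdac4, a histone deacetylase, had 1.96% in depressed and 53.5% in normal embryos, and Tpm3-rs7, a tropomyosin copy that RefSeq lists as a pseudogene, had 0.106% in depressed and 42.8% in normal embryos. The 5' UTR regions that were higher lay in Runx1t1, a transcriptional corepressor (39.1% in depressed, 0.0553% in normal embryos), and in Mus81, a DNA repair endonuclease (20.05% in depressed, 0.0920% in normal embryos).

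The 71 higher regions named 69 genes, and 0 genes carried 2 or more of them. Krtap5-2, a hair keratin-associated protein, had 8.515% in depressed and 0.0876% in normal embryos over 32 cytosines. It belongs to a family of similar genes, so the placement of its reads is uncertain. Hsdl2, a hydroxysteroid dehydrogenase-like enzyme, had 39.4% in depressed and 0.159% in normal embryos. Acadm, which starts the oxidation of medium-chain fatty acids, had 54.2% in depressed and 0.147% in normal embryos. Steap3, a ferrireductase of endosomes, had 21.6% in depressed and 1.155% in normal embryos. Pi4kb, a phosphatidylinositol kinase, had 22.2% in depressed and 0.1695% in normal embryos. Rnf152, a ubiquitin ligase of lysosomes, had 15.5% in depressed and 0.2725% in normal embryos. Neural and sensory genes were present too. Grin1, the obligatory subunit of NMDA receptors, had 18% in depressed and 1.53% in normal embryos over 186 bp, and Opn5, an opsin, had 10.4% in depressed and 0.0795% in normal embryos. Of these 8 regions 0 overlapped a listed CHH region, beside 4.23% of all higher regions. The predicted gene Gm11564, outside the rule for named genes, had the largest statistic of the higher regions, with 36.1% in depressed and 1.696% in normal embryos.

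Just inside the list stood regions of 4 or 5 cytosines with the smallest statistics. Among lower ones with a gene symbol, the weakest lay in Syn3, a synapsin (0.0486% in depressed, 17.5% in normal embryos), Sirpa, a receptor of myeloid cells and neurons (0.0690% in depressed, 51.4% in normal embryos), and Ldb1, a LIM-domain cofactor (0.0388% in depressed, 8.61% in normal embryos). Among the weakest higher ones were those in Pacsin2, an endocytic adaptor (24.3% in depressed, 0.1435% in normal embryos), and Slc12a4, a potassium-chloride cotransporter (23.2% in depressed, 2.82% in normal embryos). The smallest difference of the 419 was 3.24 percentage points and the largest 93.7.

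Several genes carried more than 1 region. With 2 or more lower regions there were 20 genes, and with 2 or more higher regions there were 0. Dmbt1, a secreted scavenger receptor built of repeated domains, had 4 lower regions. They stood at 0.552% in depressed and 22.6% in normal embryos, 0.0431% in depressed and 61.5% in normal embryos, 0.0606% in depressed and 65.2% in normal embryos, and 0.0929% in depressed and 48.2% in normal embryos. Of all lower regions, 32 (9.20%) lay within 1000 bp of another lower one, and of the higher regions 0 lay within 10000 bp of another higher one. The 2 counts start from 348 and 71 regions and were not tested against each other.

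In 3 genes lower and higher regions lay side by side. Map1a had a higher region of 9 cytosines at chr2:121299724-121299786, with 18.9% in depressed and 1.43% in normal embryos. It begins 124 bp past a lower region of 5 cytosines with 5.96% in depressed and 49.8% in normal embryos, and the long lower region of Map1a follows it. Tcf20 had a higher region with 12.2% in depressed and 0.327% in normal embryos, 491 bp from its longest lower one, and a second lower region with 2.465% in depressed and 35.3% in normal embryos. Ncdn, the neuronal protein neurochondrin, had a higher region with 31.8% in depressed and 0.236% in normal embryos, 629 bp from a lower one with 0.156% in depressed and 5.59% in normal embryos. The direction in these genes therefore changed over distances of 124 to 629 bp.

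Of the 419 regions, 336 carried a gene symbol, which named 246 genes with a lower and 69 with a higher region. Protein-coding genes of RefSeq carried a lower region in 237 of 21900 cases (1.08%) and a higher one in 68 (0.311%). Across 19 gene lists with 504 genes, 41 genes (8.14%) carried a lower and 5 (0.992%) a higher region. The lists were drawn up with results of these libraries known, so these shares are no independent evidence for any theme. Of the 19 lists, 8 cover genes of the cytoskeleton, synapse, ion channels, signalling, neuropeptides and adhesion. Not all of their genes are confined to neurons. In these 8 lists, 30 of 247 genes (12.1%) carried a lower region and 3 (1.21%) a higher one. The 38 lower regions of the 30 genes had medians of 0.327% in depressed and 38.2% in normal embryos, near those of all lower regions.

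Cytoskeletal genes had the largest shares. In the list of neurofilament, microtubule and tubulin genes 6 of 30 carried a lower region: Map1a, Map2, Map1b, Map4, the dynein heavy chain Dync1h1 and the neurofilament subunit Nefm. Map1b, a microtubule-associated protein of growing axons, had 1.10% in depressed and 31.5% in normal embryos in the stronger of its 2 lower regions. Map4, the relative of Map2 outside neurons, had 0.510% in depressed and 34.7% in normal embryos in the stronger of its 2. In the list of actin and spectrin genes 4 of 22 carried one, among them Sptbn1, Ank2 and Ank3. Ank3, the ankyrin of the axon initial segment, had 5.33% in depressed and 75.4% in normal embryos. Sptbn1, a spectrin, had 0.662% in depressed and 42.95% in normal embryos. The list of neurofilament, microtubule and tubulin genes had 1 gene with a higher region, Map1a, and the list of actin and spectrin genes had 0. Tuba1c, a tubulin gene not on the list, also carried a higher region, with 27.6% in depressed and 0.0765% in normal embryos.

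Genes of the synapse had smaller shares. The presynaptic list had 2 of 34 genes with a lower region, Syt11, a synaptotagmin (0.640% in depressed, 48.1% in normal embryos), and Pclo, a scaffold of the active zone. Pclo had 0.102% in depressed and 25.95% in normal embryos in 1 region and 0.0803% in depressed and 59.8% in normal embryos in the other. The postsynaptic list had 2 of 36, Gria2 and the exchange factor Iqsec1, beside Grin1 with its higher region. Of 33 ion channel genes 3 carried a lower region. Kcna4, a voltage-gated potassium channel, had 0.0462% in depressed and 46.65% in normal embryos. Kcnj10, the inward rectifier of glia, had 0.0721% in depressed and 44.9% in normal embryos, and Scn3a, a neuronal sodium channel, had 0.0731% in depressed and 50.4% in normal embryos. All 3 channels were below 0.1% in the depressed group, in regions of 7 to 9 cytosines. Depressed medians of all lower regions of 4 to 7 and of 8 to 12 cytosines were 0.103 and 0.158%.

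Pumps, calcium sensors and G-protein signalling had 5 of 34 genes with a lower region and 0 with a higher one. Atp2b2, a plasma membrane calcium pump, had 0.169% in depressed and 36.1% in normal embryos. Hpca, the calcium sensor hippocalcin, had the highest depressed level of all 348 lower regions, 20.2% in depressed and 71.05% in normal embryos. The CHH region over it had 30.8% in depressed and 77.2% in normal embryos. Among granins and neuropeptide genes, Scg2, the granin secretogranin II, had 0.0560% in depressed and 73.3% in normal embryos, and Pcsk2, a prohormone convertase, had 0.881% in depressed and 9.85% in normal embryos. Adhesion and guidance genes had 6 of 38 with a lower region, among them the neurexin Nrxn3 (0.0822% in depressed, 38.3% in normal embryos). Fat3, a giant cadherin, had 0.210% in depressed and 52.2% in normal embryos. Slit1, a repellent of growing axons, carried the 1 higher region of that list, with 15.7% in depressed and 0.06535% in normal embryos.

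Over pluripotency, trophectoderm, primitive endoderm and germ cell markers, 1 of 67 genes (1.49%) carried a lower region, Krt8, and 0 a higher one, a share near the 1.08% of all coding genes. The lists of neurogenic transcription factors (34 genes) and of stress hormone, monoamine and neurotrophin genes (30) had 0 in both directions, too few genes to differ visibly from that share. Transcription factor genes not on the list did carry regions. Prox1 had a lower one (0.115% in depressed, 20.2% in normal embryos) and Isl1 a higher one (10.9% in depressed, 0.236% in normal embryos). Of 30 imprinted genes, Peg3, a paternally expressed zinc-finger gene, carried a lower region (0.263% in depressed, 25.9% in normal embryos). Glial lists had 1 gene each. Sparcl1, a matrix protein of astrocytes, was lower (0.639% in depressed, 41.85% in normal embryos), and Mag, a myelin glycoprotein, was higher (29.1% in depressed, 0.638% in normal embryos). Of 36 listed genes of DNA methylation machinery and chromatin, 3 carried a lower region: the remodeller Chd5, the acetyltransferase Ep300 and the corepressor Ncor1. Dnmt3l, the cofactor of de novo methylation in germ cells, carried the 1 higher region of that list. It had 8.51% in depressed and 0.119% in normal embryos. Chromatin genes not on the list included Kmt2b, Kmt2e and Asxl1 with a higher region, and Hdac4, Bptf, Nsd1 and Trrap with a lower one. Widely used genes of translation, folding and glycolysis had 5 of 32 with a lower region and 0 with a higher one. Of these, Hsp90ab1, a chaperone, had 0.487% in depressed and 73.65% in normal embryos, and Aldoa, a glycolytic aldolase, had 0.0462% in depressed and 50.8% in normal embryos.

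**Figure D3:**
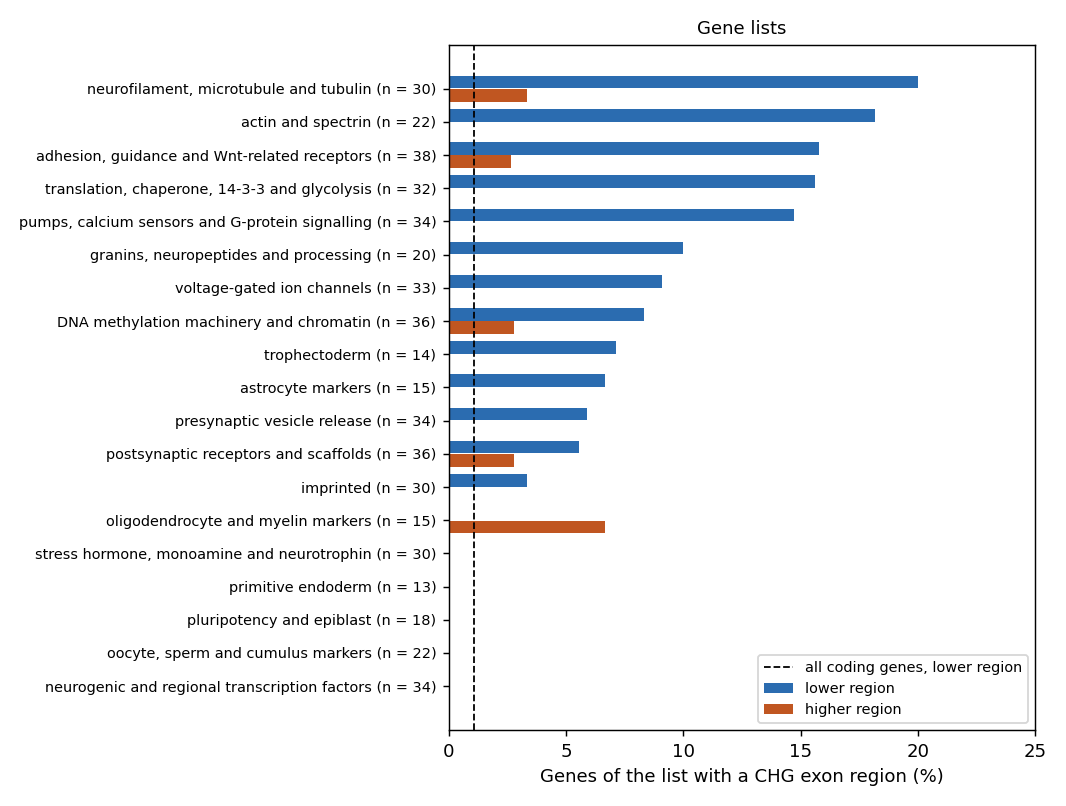
Share of the genes of each list (%, x axis) that carried a lower or a higher CHG exon region, with the number of genes in brackets and a dashed line at 1.08%, the share of all protein-coding genes with a lower region. Microtubule and neurofilament genes (20%) and actin and spectrin genes (18.2%) stand highest, and 5 lists stand at 0 for both directions.

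Regions in 2 further groups of genes caught attention only after the values were seen, and their counts carry no weight as a test. A list of long non-coding RNAs drawn up as nuclear, which was not checked here, had 4 of 8 genes with a lower region and 0 with a higher one. The share of all lncRNA genes with a lower region was not computed. Of all 348 lower regions, 8 (2.30%) lay over a lncRNA gene alone. Malat1, an abundant RNA of nuclear speckles, had the highest normal level of all 419 regions, with 0.09405% in depressed and 93.8% in normal embryos at chr19:5797180-5797351, and a second region with 0.0775% in depressed and 59.6% in normal embryos. Neat1, the RNA scaffold of paraspeckles, had 0.394% in depressed and 36.3% in normal embryos in 1 region and 0.524% in depressed and 58.6% in normal embryos in the other. Miat and Oip5os1 carried the remaining lower ones. Genes of secretory intestinal cells had 4 of 20 with a lower region, beside 1.08% of all coding genes: Dmbt1, Fcgbp, Clca1 and Clca3b. Clca1, a secreted protein of goblet cells, had 0.994% in depressed and 45.1% in normal embryos in 1 region and 0.0562% in depressed and 21.8% in normal embryos in the other. Clca genes lie in a cluster of similar copies, which makes the placement of their reads uncertain.

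Pseudogenes were frequent among the lower regions. A RefSeq pseudogene was overlapped by 71 of 348 lower regions (20.4%, interval 16.3 to 25.02%) and by 2 of 71 higher regions (2.82%, interval 0.343 to 9.81%), against 5.41% of all listed CHG regions. This count was chosen after the values were seen. The rule that took the regions leaves out any with a 3' UTR entry, and pseudogenes usually have no annotated UTR: 73 of all 102 CHG regions over a pseudogene are among the 419. The normal medians with and without a pseudogene were close. Lower regions over a pseudogene had medians of 0.137% in depressed and 33.3% in normal embryos. Those over a coding gene and no pseudogene (n = 263) had 0.301% in depressed and 33.2% in normal embryos. Those over a lncRNA gene alone (n = 8) had 0.0937% in depressed and 49.3% in normal embryos.

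Copies of housekeeping genes were among these. Among regions in pseudogenes named as copies of a gene whose symbol RefSeq lists as such, 16 were lower and 1 higher, and they point to 15 parents. Normal levels in the 16 ran from 11.8 to 71.4%, and depressed levels from 0.0451 to 4.29%. Uqcrh-ps2, a copy of a respiratory chain gene, had 0.0574% in depressed and 33.9% in normal embryos. Rpl38-ps2, a copy of a ribosomal protein gene, had 0.652% in depressed and 22.0% in normal embryos. Rtraf-ps had 4.29% in depressed and 71.4% in normal embryos, the highest normal level of the 16. The higher one, Selenok-ps8, had 49.3% in depressed and 3.61% in normal embryos. A pseudogene and its parent share long stretches of sequence, so reads may be placed on either copy, and these levels are uncertain in that respect. By the same rule, CHH regions showed a like split, with 45 of 205 lower (21.95%) and 6 of 70 higher regions (8.57%) over a pseudogene, and CG regions had 5 of 170 lower ones (2.94%).

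**Figure D4:**
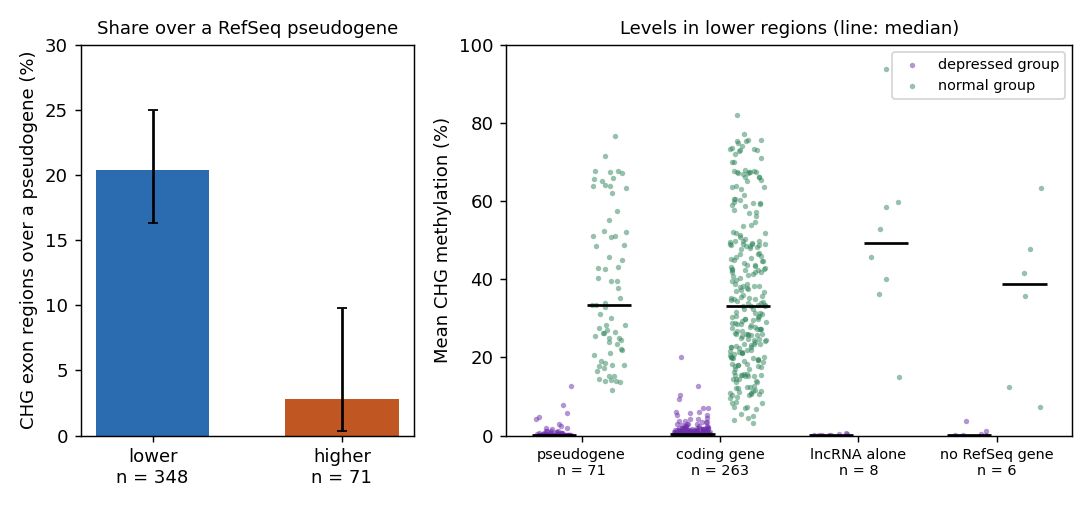
Left, share of the lower and higher CHG exon regions over a RefSeq pseudogene (%, bars) with exact binomial 95% intervals over regions; right, mean CHG methylation (%) of each lower region in the depressed and the normal group by the kind of gene it overlaps, with medians as lines. The bars stand at 20.4 and 2.82%, and the median normal level is 33.3% over pseudogenes and 33.2% over coding genes.

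Other cytosines of the same places were read from the authors' CHH and CG regions. A listed CHH region overlapped 171 of 348 lower regions (49.1%), and all 171 went in the same direction. The CHH medians there were 0.672% in depressed and 30.5% in normal embryos, beside CHG medians of 0.493% in depressed and 34.7% in normal embryos. In Enc1 the CHH level was 0.736% in depressed and 82.6% in normal embryos, close to the CHG values of the same exon. Over all 6943 listed CHH regions 20.4% were lower in the depressed group. CHH regions taken by the same exon rule were mostly lower, with 205 lower and 70 higher. The 177 lower regions without a CHH partner were shorter (median 96 bp, against 158 bp with one) and held fewer cytosines (8 against 13). Their medians were 0.120% in depressed and 33.1% in normal embryos. Higher regions had a CHH partner in 3 of 71 cases (4.23%), in Camkk2, a kinase of the calmodulin pathway, Olfr555, an odorant receptor, and Ncdn, and all 3 were higher in CHH too. In Ncdn the CHH level was 33.6% in depressed and 0.2195% in normal embryos.

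A listed CG region overlapped 9 lower regions (2.59%) and 0 higher ones, and all 9 were lower in CG, as were 98.5% of all 880 listed CG regions. Their CG medians were 8.05% in depressed and 70.95% in normal embryos. Map1a had CG levels of 5.57% in depressed and 55.6% in normal embryos. Wdr6, a WD-repeat protein, had 2 regions under the same CG region, which stood at 8.05% in depressed and 72.45% in normal embryos, while its CHG levels were 0.513% in depressed and 26.7% in normal embryos in 1 and 0.314% in depressed and 8.41% in normal embryos in the other. Lrp10, a receptor of the LDL receptor family, had CG levels of 20.7% in depressed and 65.9% in normal embryos. Over the 9 regions the depressed median was thus 8.05% in CG and 0.439% in CHG. The contexts come from the same libraries and reads and are not independent of each other.

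Set beside other CHG regions of the list, the exon regions outside islands held 16.9% higher regions. CpG islands and shores had 16.6% (interval 12.6 to 21.1%, n = 314), introns without exon 5.10% (interval 2.74 to 8.56%, n = 255) and 3' UTRs 2.64% (n = 833). The interval of the exon regions overlaps that of islands and shores and lies above those of introns and 3' UTRs. No test was made, since regions within a gene or library are not independent. Among lower regions, islands and shores had the highest depressed and the lowest normal median. The medians were 0.209% in depressed and 33.7% in normal embryos in the exon regions, 0.140% in depressed and 33.2% in normal embryos in 3' UTRs, 0.101% in depressed and 28.4% in normal embryos in introns, and 0.496% in depressed and 24% in normal embryos in islands and shores. The share of lower regions with a CHH partner was 49.1% in the exon regions, 58.9% in 3' UTRs, 46.6% in islands and shores and 21.1% in introns. Of the 246 genes with a lower exon region, 39 (15.9%) were also named in some entry of a lower CHG region with a 3' UTR entry. In all, 808 genes were so named, and RefSeq lists 21900 protein-coding genes. The 39 are 4.83% of the 808. Of the 69 genes with a higher exon region, 8 (11.6%) were named by such a lower region and 0 by a higher one. These overlaps were not tested.

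**Figure D5:**
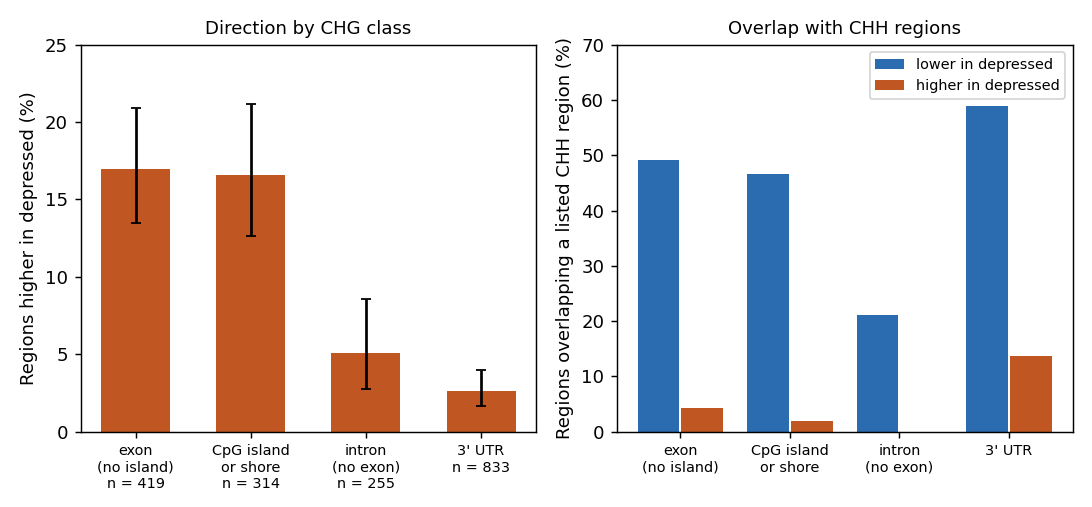
Left, share of CHG regions higher in the depressed group (%) by annotation class with exact binomial 95% intervals over regions; right, share of lower and of higher regions overlapping a listed CHH region (%). Exon regions outside islands and island regions have 16.9 and 16.6% higher regions, introns and 3' UTRs 5.10 and 2.64%, and CHH overlap is 49.1% in lower and 4.23% in higher exon regions.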

How the data were processed

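Libraries were made from bisulfite-converted DNA of single embryos. The submitters' processing notes name Trim Galore 0.3.3, Bismark, SAMtools and the mouse build mm10. No region caller, threshold or coverage filter was given in the sources used here. Per the file headers, the deposited table gives the length, cytosine number and context of each region, the authors' group means as a fraction (0 to 1), the difference between them and, as a score, the region statistic. An unconverted cytosine counts as methylated, and no conversion rate was used here.

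Its 18732 annotation entries were collapsed to 9707 distinct regions by position and context, and fractions were multiplied to percent (Python 3.11.15, pandas 2.3.3, SciPy 1.17.1, matplotlib 3.10.9). Overlaps needed at least 1 base. The scripts were tested on simulated data. Gene types came from RefSeq (GRCm38), and 302 of 312 symbols matched a coding gene. Depth is unknown, so no coverage minimum was set.

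The members and lists were chosen with earlier results of these data known. Named genes were, by absolute statistic and without predicted names, the 12 strongest lower and 8 strongest higher regions, 5 lower ones with a 5' UTR entry, up to 4 genes per list, up to 5 overlapping a CG region, the 3 weakest and the longest of each direction, and the 5 genes with most lower regions; some of these are not reported here. Other genes, the pseudogene count, the cytosine classes, the ranges of low levels and the lists of nuclear and intestinal genes were chosen after the values were seen. Alternatives covered 12 settings.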

Additional observations from a re-analysis of the deposited data

How the results depend on the processing

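Group means without counts set the limits: no embryo could be left out, no spread computed and no coverage filter tried. No paired analysis was possible because the table has no value per embryo. Of 12 alternatives, asking for an exon entry changed no member, since all 419 have one. The other 11 gave 109 values of 11 results, of which 91 stayed within the interval of the reported value, or within 1.5 times of it for numbers of genes, and 18 did not; the share of lower regions ran from 72.24 to 86.42%. Asking for a difference of 20 percentage points gave a normal median of 42.31% in lower regions, a depressed median of 27.44% in higher regions and 40 genes with a higher region. Asking for 10 cytosines gave medians of 0.4536% in depressed and 29.77% in normal embryos in lower regions, a length of 164.5 bp, a CHH overlap of 62.23%, 137 genes with a lower and 37 with a higher region. Asking for a statistic of at least 57.37, the median of CHG regions, gave a depressed median of 0.4386%, a length of 164 bp, a CHH overlap of 63.78%, 129 genes with a lower and 29 with a higher region. Leaving out regions that overlap a CHH region gave a share lower of 72.24%, a depressed median of 0.1199%, a length of 96 bp and 132 genes with a lower region; the CHH overlap itself has no value there. These settings keep fewer regions (216 to 302 of 419). Leaving out pseudogene regions and the 2 regions off the numbered autosomes were alternatives chosen after seeing the data.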
